A study of Cucumis melo with 62 samples.

Results

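The genes described here are the 100 genes whose transcript level followed most closely that of MELO3C014437.2, the ripening ACC oxidase CmACO1, across fruit of the melon (Cucumis melo) cultivars F39 and TTDV. They were chosen from 7556 ranked genes of 29980 gene IDs, by the highest Pearson correlation with CmACO1 over 38 libraries. The name CmACO1 comes with the rule that chose the genes, since the deposited files pair no gene ID with a product name. The same 100 genes were then examined in 24 libraries of 8 other cultivars, which the choice had not used.

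RNA was sequenced from mature fruit picked about 45 days after flowering, and each plant is labelled WT. The libraries of the choice held F39 and TTDV from Georgia, North Carolina, Arizona, California and Uvalde in 2019, both cultivars from Uvalde in 2018, and TTDV alone from Indiana in 2019. At Weslaco, Texas, the fruit of 2019 came from CRUSER, PRIMO, Infinite Gold, HD150, HD252, OC164, TH-5 and TH-6. Each group had 3 libraries except TTDV Georgia, with 2. Whether the libraries of 1 group were separate plants is not in the labels, so the p-values reflect only how much these samples vary. The tissue is given only as fruit, and in such bulk samples fewer cells of a type and less RNA per cell cannot be told apart.

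Ethylene is the hormone that drives the ripening of climacteric fruit. ACC synthase makes its precursor ACC, and ACC oxidase turns ACC into ethylene. Melon cultivars range from climacteric types, with a burst of ethylene at maturity, to types with little or none. In melon fruit with ACC oxidase suppressed, abscission, much of the aroma and part of the softening were lost or delayed, while sugar accumulation and flesh colour went on.

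Values are given as normalised reads, recovered from the deposited variance-stabilised values, or as those values themselves, which lie on a log2-like scale. On that scale a doubling from 1000 reads adds 0.975 and a doubling from 10 reads only 0.405, which understates differences of genes with few reads. Library totals ranged from 6251302 to 31333150 reads in the F39 and TTDV table and from 4041908 to 21290476 at Weslaco. Over the 24 Weslaco libraries CmACO1 had r = -0.57 with the log2 library total, against 0.17 over the 38 others. The 3 CRUSER libraries were the shallowest at Weslaco, with 4041908, 7806433 and 7086348 reads. HD252 replicates 1 and 2 were the deepest, with 18605550 and 21290476, and its replicate 3 had 12564637. The part of depth in the Weslaco results was not tested. The r of CmACO1 with the number of genes read was -0.22 and -0.18 in the F39 and TTDV table and at Weslaco. At Uvalde 2019 the cultivar labels went against MELO3C016167.2. The libraries labelled F39 there had 491.6 to 1044.9 reads of it, against 7795.5 to 30887.6 in the other F39 libraries. Those labelled TTDV had 7521.2 to 20690.1, against 25.27 to 648.0 in the other TTDV libraries. MELO3C024745.2 went against the labels too. It had 655.0 to 896.7 reads in the Uvalde 2019 libraries labelled F39, against 0.00 to 525.6 in the other F39 libraries. In those labelled TTDV it had 0.00 to 4.91, against 320.9 to 3057.1 in the other TTDV libraries. The correlation rule uses no label, and 75 of the 100 genes were chosen again without the 6 Uvalde 2019 libraries. Replicate 3 of F39 from Uvalde in 2019 and replicate 3 of TTDV from North Carolina were more like each other than like their own groups, and 79 of the 100 were chosen again without this pair. They were not the only such libraries. Only 29 of the 38 libraries, and 18 of the 24 at Weslaco, were most like one of their own group. The exceptions included F39 Georgia replicates 1, 2 and 3, TTDV Indiana replicate 1 and OC164 replicate 3. OC164 replicate 3 had r = 0.9356 with HD150 replicate 1, against at most 0.9336 with its own group.

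CmACO1 itself varied widely among fruit of 1 cultivar and place. It had 23471.2, 35197.3 and 663127.6 reads in F39 from Georgia, and 540893.2, 8921.9 and 11201 in TTDV from Indiana. F39 from Uvalde in 2018 had 167515.9, 1767.4 and 1628.1 reads. In each of these groups 1 library stood far above the others, and 48.8% of the variance of the CmACO1 value over the 38 libraries lay within groups. In contrast, TTDV from California was low throughout, with 4271.5, 2348.7 and 900.4 reads, as was TTDV from Georgia, with 1993.4 and 1425.4. Over all 38 libraries the lowest was 900.4, the median 9912.8 and the highest 663127.6 reads, which came to between 0.00682% and 3.45% of a library's reads.

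The 100 genes were selected on their r with CmACO1, which ran from 0.634 to 0.926 with a median of 0.697, against a median of 0.0345 over all genes with a mean value of 8 or more (about 221 reads). These values describe the choice and were not tested. The edge of the list was close, as MELO3C009257.2 and MELO3C016536.2 at ranks 99 and 100 had r of 0.6343 and 0.6342, and MELO3C016809.2 and MELO3C008092.2 as the first 2 genes past it both had 0.6338. Within groups the members' median r was 0.746 (range 0.27 to 0.94), and over the 13 group means it was 0.707. The likeness that chose them was present both among fruit of the same cultivar and place and among the means of cultivars and places. The size of the movement differed among the members. For each unit of the CmACO1 value a member rose by a median of 0.22 units, with a range from 0.0629 to 0.831. From the lowest to the highest library the members' reads spanned a median of 12.1-fold, and 14 members spanned at least 100-fold.

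MELO3C005787.2 had the highest r of the ranked genes, 0.926. It had 772.0, 3846.9 and 37341.2 reads in F39 from Georgia, and 118.0 and 111.6 in TTDV from Georgia. In TTDV from Indiana it had 25164.5, 907.9 and 810.4 reads, and in F39 from Uvalde in 2018 it had 3717.3, 153.4 and 58.83. The single libraries in which CmACO1 stood out were also those in which this gene did. The next in rank were MELO3C010162.2 (r = 0.914), MELO3C031670.2 (0.883), MELO3C017768.2 (0.832) and MELO3C003803.2 (0.830). MELO3C010162.2 had 680.8, 2500.1 and 18093.7 reads in F39 from Georgia and 17640.8, 348.3 and 386.2 in TTDV from Indiana. MELO3C031670.2 had 512.9, 754.7 and 3617.1 reads in F39 from Georgia and 5817.2, 698.8 and 136.8 in F39 from Uvalde in 2018. MELO3C017768.2 moved less and was abundantly read, with 4704.3 to 56852.6 reads over the 38 libraries. The 2 members of highest mean reads, which is not a measure per transcript length, were MELO3C026512.2 (11011.4 to 82898.0) and MELO3C009845.2 (9661.1 to 110017.5).

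Few libraries held the extremes of the list. F39 Georgia replicate 3 was the highest of the 38 libraries for 30 of the 100 members, TTDV Indiana replicate 1 for 23 and TTDV North Carolina replicate 3 for 15. TTDV California replicate 3 was the lowest for 28, TTDV Georgia replicate 2 for 13 and TTDV Uvalde 2018 replicate 3 for 11. All 100 genes together took 0.947% to 5.995% of a library's reads, with a median of 2.19%. The library with the most CmACO1 reads of its group also had the highest mean over the 100 members in 12 of the 13 groups. These counts come from the libraries of the choice, so they describe it and were not tested. At Weslaco, which the choice did not use, the same held in 6 of the 8 cultivars. All 3 libraries had the same order for both in 4 of these 8.

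By group, the mean value over the 100 members was highest in F39 from North Carolina, at 11.20 ± 0.33 (SD, n = 3), and in F39 from Georgia, at 11.03 ± 0.78 (n = 3). It was lowest in TTDV from California, at 9.48 ± 0.42 (n = 3), TTDV from Georgia, at 9.53 ± 0.12 (n = 2), and TTDV from Uvalde in 2018, at 9.55 ± 0.10 (n = 3). The libraries of the highest groups overlapped with each other, and so did those of the lowest. F39 and TTDV did not overlap at Georgia (10.45 to 11.91 against 9.44 to 9.62), California (10.21 to 11.04 against 8.99 to 9.74) or Uvalde in 2018 (9.76 to 11.46 against 9.44 to 9.62). They overlapped at North Carolina (10.84 to 11.48 against 9.73 to 11.18) and at Arizona (9.77 to 10.22 against 9.96 to 10.79). At Uvalde in 2019, where the labels went against cultivar genes, the libraries labelled F39 ran from 9.41 to 11.07 and those labelled TTDV from 10.41 to 11.07. These group values come from the libraries of the choice and were not tested.

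**Figure D1:**
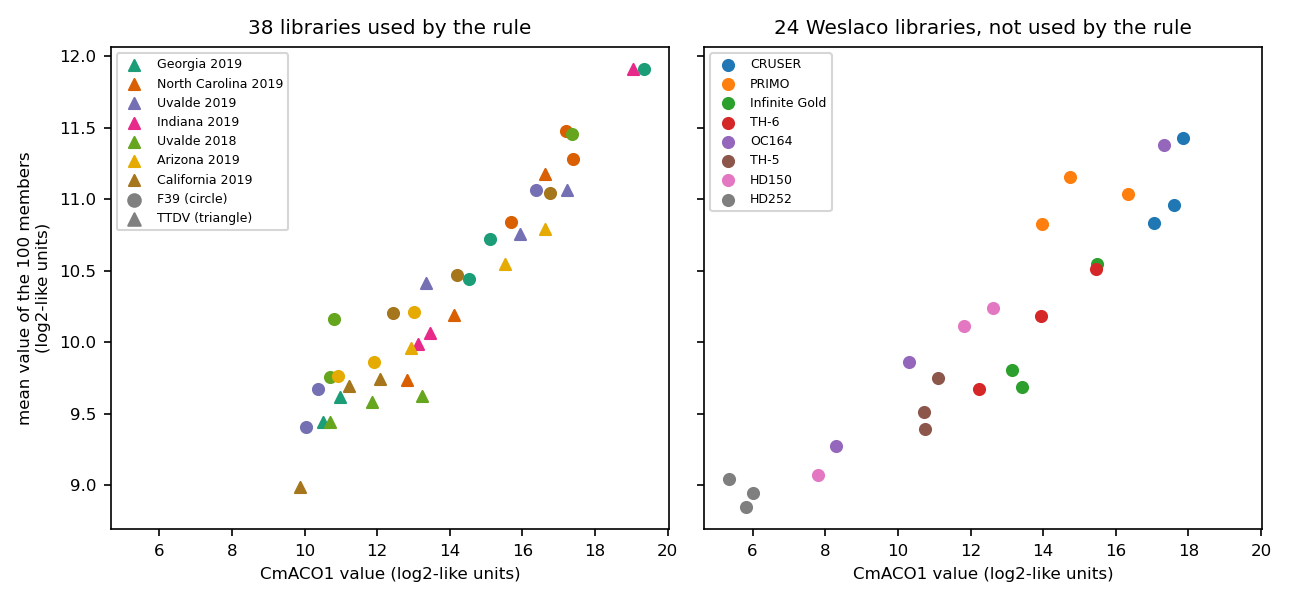
Mean value of the 100 members (vertical axis, log2-like units) against the CmACO1 value (horizontal axis, same units), 1 point per library, for the 38 libraries used to choose the members (left, coloured by place and year, circles F39, triangles TTDV) and for the 24 Weslaco libraries (right, coloured by cultivar). In both panels the members' mean rises with CmACO1, from 8.99 to 11.91 on the left and from 8.85 to 11.43 on the right.

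At Weslaco, CmACO1 separated the cultivars over a wider range. CRUSER had 235880.9, 135069.8 and 198944.8 reads of CmACO1, the highest 3 of a cultivar, and HD252 had 12.73, 33.49 and 25.49. PRIMO had 27542.1, 16045.7 and 82004.2 reads, and TH-5 had 2174.5, 1680.3 and 1662.5. The CRUSER libraries lay above those of all other cultivars except for 1 of OC164, which fell between them, and the HD252 libraries lay below all. TH-6 had 4822.9, 15648.4 and 45178.5 reads and Infinite Gold had 9015.9, 10922.6 and 45377.4. HD150 had 3545.4, 188.1 and 6256.1. OC164 was the most uneven cultivar, with 1220.8, 279.7 and 163727.5 reads, and 21.1% of the variance of the CmACO1 value lay within cultivars.

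The 100 members followed CmACO1 in these cultivars too. Over the 24 libraries their median r with CmACO1 was 0.744, against 0.0309 over the 7644 genes with a mean value of 8 or more. Of the 100 members, 98 had an r above 0 and 83 had an r of at least 0.5, against 52.1% and 20.3% of those 7644 genes. Over deviations from the cultivar means the members' median r was 0.708 with 99 of 100 above 0, against 51% of those genes. The CmACO1 value spread most in OC164, with an SD of 4.74 against 0.215 to 2.58 in the other cultivars. OC164 therefore weighs most in every r over these deviations, and none was made without it. Over the 8 cultivar means the members' median r was 0.784. These correlations are descriptions over libraries that share cultivars. Ranked anew on the Weslaco libraries with the same rule, 27 members came among the first 100 genes, out of 100 in each list. Of the 96 members that reached a mean of 8 there, 63 lay in the first 763 of 7639 ranks.

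**Figure D2:**
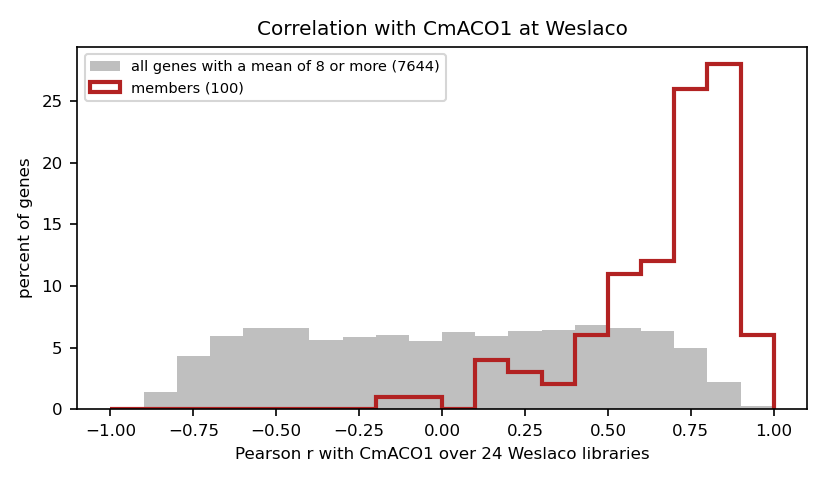
Percent of genes (vertical axis) by Pearson r with CmACO1 over the 24 Weslaco libraries (horizontal axis, steps of 0.1), for the 100 members (red outline) and for the 7644 genes with a mean value of 8 or more (grey). The members' median lies at 0.744 and that of all these genes at 0.0309.

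The slope of each gene on the CmACO1 value was tested with limma over the 24 Weslaco libraries, with cultivar as a random block. Of the 100 members, 81 had a positive slope past the threshold (Benjamini-Hochberg adjusted p under 0.05 over 17130 genes) and 0 a negative one. Over all genes tested, 9.89% passed with a positive and 11.8% with a negative slope. At an unadjusted p under 0.05 the members counted 90 and 0, against 16.9% and 18.5% of all genes. With limma's voom they counted 78 and 0, against 8.86% and 11.8%. Among the first 50 members by rank in F39 and TTDV, 45 passed, and among the last 50, 36 passed. The steepest was MELO3C021164.2, which rose by 0.67 ± 0.055 (SE) units per unit of CmACO1 in limma (adjusted p = 6.22e-08). It had 66175.0, 12384.3 and 21818.0 reads in CRUSER against 120.0, 19.85 and 73.52 in HD252, so these cultivars stood far apart. MELO3C002598.2 was next, at 0.62 ± 0.065 (limma adjusted p = 1.36e-06), with 41984.3, 16527.0 and 8061.8 reads in CRUSER and 278.8, 260.5 and 97.05 in HD252.

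Single correlations over the 24 Weslaco libraries were tested by permutation (2-sided, 100000 permutations, adjusted over 17130 genes), taking the libraries as exchangeable although libraries of a cultivar are related. For MELO3C021164.2, Pearson's r was 0.953 (permutation p = 1e-05, the smallest they can give, adjusted p = 0.00021) and Spearman's rho was 0.946 (permutation p = 1e-05, adjusted p = 0.000239). Its r was 0.944 without HD252 replicates 1 and 3, the libraries farthest from the median of CmACO1. For MELO3C002598.2, r was 0.895 and rho 0.893, with the same permutation p and adjusted p for each, and r was 0.867 without those libraries. The gene of highest r in F39 and TTDV, MELO3C005787.2, had r = 0.507 (permutation p = 0.0114, adjusted p = 0.0336) and rho = 0.526 (permutation p = 0.00912, adjusted p = 0.0285) at Weslaco, and r was 0.480 without the same libraries. The next in rank, MELO3C010162.2, had an r of 0.843 and a rho of 0.837, both with permutation p = 1e-05 (adjusted p = 0.00021 and 0.000239), and its r without those libraries was 0.797. MELO3C031670.2, MELO3C017768.2 and MELO3C003803.2 had r of 0.783, 0.832 and 0.887 and rho of 0.874, 0.862 and 0.901, with the same smallest permutation p and adjusted p. Without HD252 replicates 1 and 3 their r was 0.753, 0.818 and 0.847.

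Within cultivars, where only differences among the 3 fruit libraries of a cultivar count, 63 of the 100 members had a positive slope past the threshold in limma and 0 a negative one. Over all genes 2.83% passed with a positive and 2.53% with a negative slope. Without adjustment (p under 0.05) the members counted 86 and 0, against 9.5% and 10.8%, and with voom 64 and 0, against 2.9% and 2.37%. MELO3C002598.2 had the steepest slope within cultivars, 0.75 ± 0.091 (SE, limma adjusted p = 0.000258). It had 746.2, 441.0 and 30709.3 reads in the 3 OC164 libraries, where CmACO1 had 1220.8, 279.7 and 163727.5. MELO3C003230.2 followed with 0.69 ± 0.13 (limma adjusted p = 0.00489), at 6933.9, 412.8 and 26236.5 reads in OC164. The within-cultivar count rested on OC164 replicate 3: it was 11 without that library and 8 without the 3 OC164 libraries, where 0.228% and 0.118% of all genes passed with a positive slope. The members' median slope within cultivars was 0.19 in the full fit, 0.22 without that library and 0.19 without OC164, so the count of calls fell and the median slope did not. MELO3C003230.2 missed the threshold without OC164 (slope 0.92, limma adjusted p = 0.0529). In all, 59 members passed in both slope tests, against 2.24% of all genes, 22 only in the test over all libraries, 4 only within cultivars and 15 in neither.

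OC164 replicate 3 had more CmACO1 reads than any Weslaco library outside CRUSER, and 92 of the 100 members were higher in it than in both other OC164 libraries. Of all genes tested, 33.2% were higher there than in both. The median difference of the members from the mean of the other 2 libraries was 1.54 units. MELO3C006254.2 had 266.8, 201.7 and 11392.0 reads in the 3 OC164 libraries and MELO3C005787.2 had 1178.3, 1078.4 and 33184.5. By contrast, MELO3C010162.2 had only 60.55, 14.79 and 256.9, although 3 CRUSER libraries with CmACO1 in the same range had 2497.5, 2959.9 and 2547.3.

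**Figure D3:**
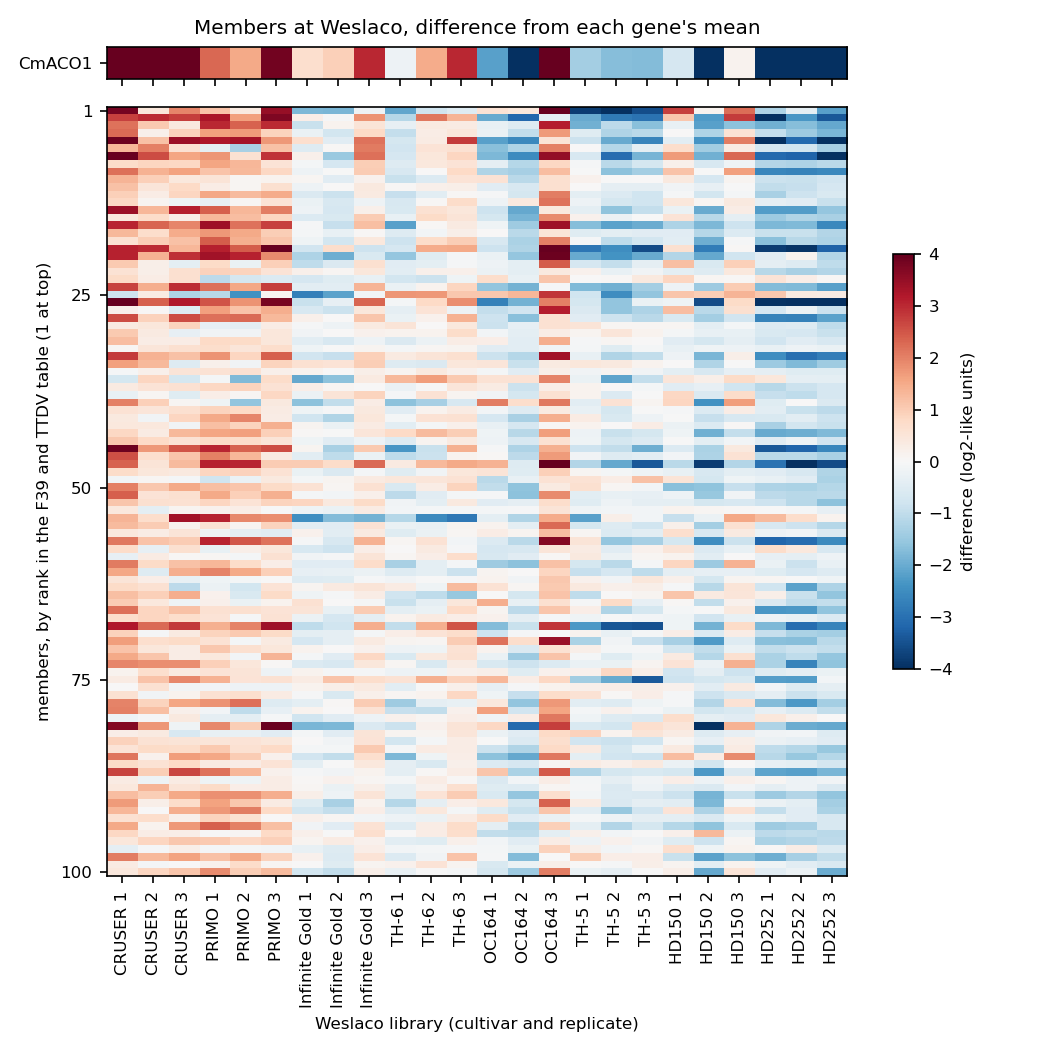
Difference of each member's value from its own mean over the 24 Weslaco libraries (colour, log2-like units, red above and blue below, saturated at 4 units), with the 100 members in rows by rank in the F39 and TTDV table and the libraries in columns, and CmACO1 in the strip on top. CRUSER, PRIMO and OC164 replicate 3 are mostly red and HD252 mostly blue. OC164 replicate 3 lies above both other OC164 libraries in 92 of the 100 members, against 33.2% of all genes tested.

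Most members differed among the 8 cultivars, as did most other genes. In limma's moderated F-test 72 of the 100 passed, against 58% of all genes tested. MELO3C021164.2 and MELO3C006254.2 had the widest ranges of cultivar means, 8.13 and 7.26 units (limma adjusted p = 0.000761 and 0.00087). MELO3C006254.2 had 4645.7, 2845.3 and 20726.7 reads in PRIMO and 10.72, 8.68 and 26.47 in HD252. The mean of a member was highest in PRIMO for 42 members, in CRUSER for 40 and in OC164 for 11. It was lowest in HD252 for 68 members and in TH-5 for 12. These counts of highest and lowest cultivars were not made for all genes, so how far they are particular to the members is not known. The mean value over the 100 members was 11.07 ± 0.32 (SD, n = 3 for each cultivar) in CRUSER, 11.01 ± 0.17 in PRIMO, 10.17 ± 1.09 in OC164, 10.13 ± 0.42 in TH-6 and 10.01 ± 0.46 in Infinite Gold. It was 9.81 ± 0.64 in HD150, 9.55 ± 0.18 in TH-5 and 8.95 ± 0.10 in HD252. CRUSER and PRIMO overlapped, and OC164, spread from 9.28 to 11.38, overlapped with every cultivar but HD252. TH-6, Infinite Gold, HD150 and TH-5 also overlapped with one another, and the 3 HD252 libraries (8.85 to 9.05) lay below every other library.

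Each cultivar was then set against the mean of the other 7 in limma, and these comparisons share libraries. In CRUSER 52 members were higher and 0 lower, against 13.2% and 14.4% of all genes, with a median difference of 0.92 over the 100 members. Without adjustment they counted 68 and 0, against 19.3% and 21%. With voom they counted 39 and 0, against 11% higher and 5.01% lower, so that the balance over all genes shifted. Without CRUSER replicate 1, the shallowest Weslaco library, 21 members were higher and 0 lower. The shares of all genes fell too, to 7.24% and 6.95%. In 3 of the 52 members called higher the CRUSER libraries lay above all 21 others, as in 127 of the 2257 genes called higher (0.741% of all genes tested). This share of the called members was thus close to that of all called genes. MELO3C018469.2 had 3296.0, 3112.1 and 3117.8 reads in CRUSER and 104.2 to 2273.9 elsewhere, a difference of 2.17 ± 0.29 (SE, limma adjusted p = 5.39e-05). MELO3C013798.2 had 3894.8, 4317.0 and 3854.6 reads in CRUSER and 1370.1 to 3524.6 elsewhere, a difference of 0.86 ± 0.15 (limma adjusted p = 0.000487). These 2 genes were close to level among the 3 CRUSER libraries.

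PRIMO was close to CRUSER in the members' mean, although its CmACO1 reads, 16045.7 to 82004.2, were all below the lowest of CRUSER, 135069.8. In PRIMO 51 members were higher and 1 lower than in the other 7 cultivars, against 15.6% and 13.7% of all genes, with a median difference of 0.88. Without PRIMO replicate 1, 27 members were higher and 0 lower, against 7.1% and 6.63% of all genes. Without replicate 2, 31 were higher and 1 lower, against 8.24% and 7.86%. Of the 2665 genes called higher, the PRIMO libraries lay above all others in 224 (1.31% of all genes tested). Among the 51 members called higher this held only for MELO3C010461.2. This gene had 7112.5, 5752.8 and 8349.5 reads in PRIMO against 1251.9 to 4164.1 elsewhere. Its difference was 1.33 ± 0.18 (SE, limma adjusted p = 3.6e-05).

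HD252 was the opposite case. In HD252 0 members were higher and 60 lower, against 15.2% and 12.9% of all genes, with a median difference of -1.03. Without adjustment they counted 0 and 72, against 20.7% and 18.9%, and with voom 0 and 59, against 19.8% and 14.5%. In 18 of the 60 members called lower the 3 HD252 libraries lay below all 21 others, against 307 of the 2217 genes called lower (1.79% of all genes tested). MELO3C021164.2 differed by -5.34 ± 0.91 (SE, limma adjusted p = 0.000425), and its 120.0, 19.85 and 73.52 reads in HD252 lay below the 166.3 of HD150 replicate 2, the lowest elsewhere. MELO3C003803.2 had 14.07, 45.90 and 12.74 reads in HD252 and 74.15 to 10268.6 elsewhere, a difference of -4.24 ± 0.85 (limma adjusted p = 0.00138).

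**Figure D4:**
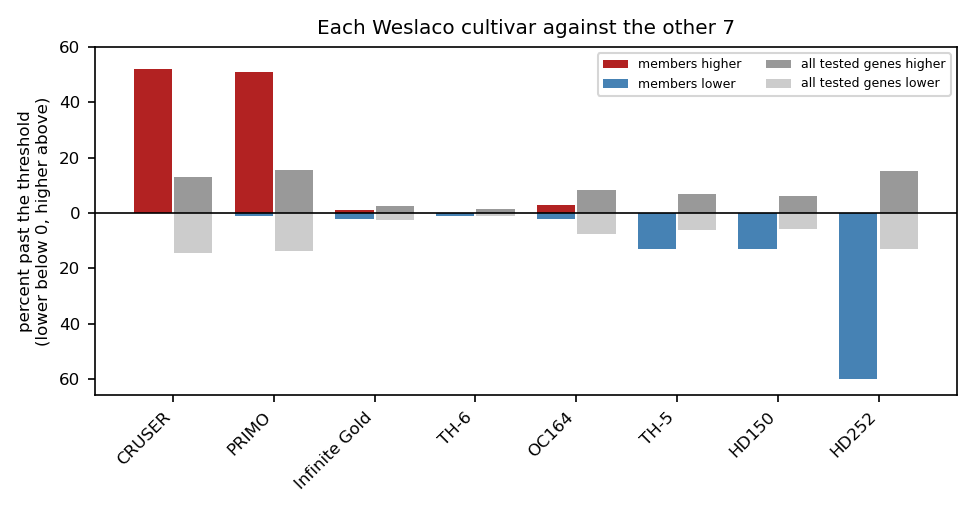
Percent of the 100 members (red higher, blue lower) and of all 17130 genes tested (grey) that passed the threshold in each Weslaco cultivar against the mean of the other 7 (vertical axis, lower calls drawn below 0). In CRUSER and PRIMO 52 and 51 members were higher, and in HD252 60 were lower.

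The other cultivars moved fewer members. In TH-5 0 were higher and 13 lower, against 7.03% and 6.06% of all genes, and in HD150 0 were higher and 13 lower, against 6.23% and 5.64%. Without adjustment the members counted 3 and 26 in TH-5, against 13.8% and 14.5%, and 5 and 26 in HD150, against 13.4% and 13.6%. Voom gave 0 higher in either, with 7 lower in TH-5, against 9.49% and 5.25%, and 13 lower in HD150, against 8.41% and 4.43%. These counts fell when 1 library of the cultivar was left out, and so did the shares of all genes called lower. TH-5 had 8, 3 and 3 lower without its replicates 1, 2 and 3, against 4.14%, 2.07% and 1.22% of all genes. HD150 had 4, 3 and 6 lower without its own, against 2.45%, 2.13% and 2.53%. Without OC164 replicate 3, HD150 had 3 higher and 17 lower. In OC164 3 were higher and 2 lower, against 8.38% and 7.39%. The OC164 calls changed direction with its own libraries, at 13 higher and 0 lower without replicate 2 and 1 higher and 12 lower without replicate 3. The OC164 count was 3 without any 1 of TH-5 replicates 1 and 3, TH-6 replicate 2, PRIMO replicate 1 or HD252 replicate 1. In Infinite Gold 1 was higher and 2 lower, against 2.6% and 2.38%, and in TH-6 0 were higher and 1 lower, against 1.38% and 1.2%. Without adjustment TH-6 had 5 higher and 5 lower, against 8.85% and 8.47%, and voom gave 0 in either direction, against 2.7% and 0.829%. The shares in OC164, Infinite Gold and TH-6 were at or below those of all genes. Infinite Gold had 0, 0 and 1 without its replicates 1, 2 and 3. TH-6 had 0 without any 1 of its replicates 2 and 3, TH-5 replicate 3 or HD252 replicate 2, and 3 and 4 without OC164 replicates 2 and 3. It had 2 without any 1 of TH-5 replicate 1, PRIMO replicates 2 and 3, CRUSER replicate 2, HD252 replicate 3 or Infinite Gold replicate 3.

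TH-5 stood out in the gene of highest r in F39 and TTDV. MELO3C005787.2 had 28.03, 11.61 and 38.45 reads in TH-5, below all other libraries (144.1 to 33184.5), and it differed by -4.45 ± 0.88 (SE, limma adjusted p = 0.00344, and 0.0757 with voom). CmACO1 was not lowest there, as HD252, with 12.73 to 33.49 reads of CmACO1, had 311.0, 583.7 and 144.1 reads of MELO3C005787.2. HD150, with at most 6256.1 reads of CmACO1, had 5395.5, 865.7 and 3794.5 of it, which overlapped with CRUSER at 11591.6, 1072.8 and 3093.1. Its r with CmACO1 was 0.861 over deviations from cultivar means and 0.401 over the 8 cultivar means, the higher of the 2 being that among fruit of the same cultivar. OC164 weighs most in the r over deviations, and MELO3C005787.2 had 33184.5 reads in OC164 replicate 3, against 1178.3 and 1078.4 in replicates 1 and 2. In F39 and TTDV the r of MELO3C005787.2 over group means had been 0.928. Of the 1038 genes called lower in TH-5, its libraries lay below all others in 117 (0.683% of all genes tested). They did so in 2 of the 13 members called lower. The second of these 2 members, MELO3C003733.2, had an even 1275.6, 1200.2 and 1259.7 reads in TH-5 against 1292.2 to 4224.4 elsewhere. It differed by -0.92 ± 0.21 (limma adjusted p = 0.00611, and 0.0509 without TH-5 replicate 3).

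**Figure D5:**
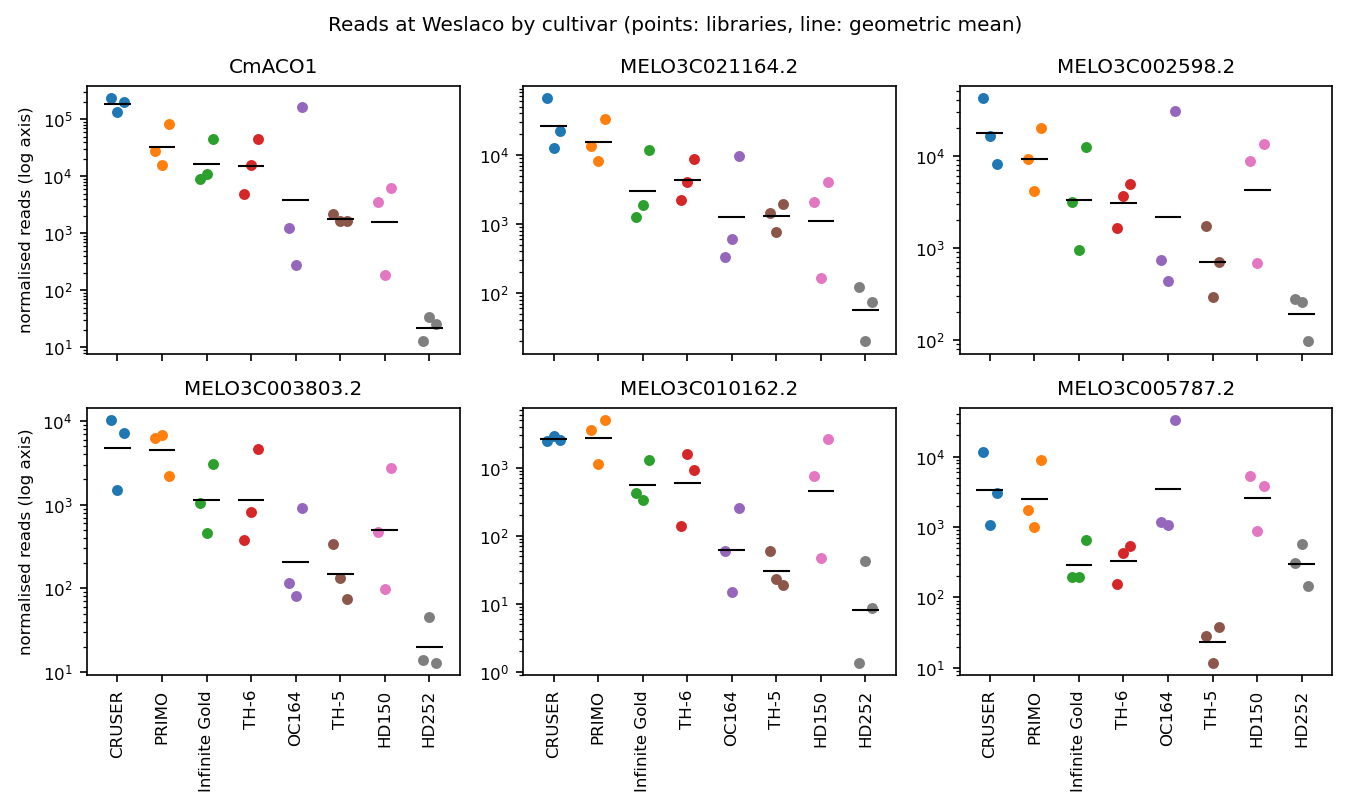
Normalised reads (vertical axis, log scale) of CmACO1 and 5 members in the 24 Weslaco libraries by cultivar (horizontal axis); points are libraries and lines geometric means. MELO3C021164.2 follows the order of CmACO1 with r = 0.953, while MELO3C005787.2 is lowest in TH-5, at 11.61 to 38.45 reads, and MELO3C010162.2 stays at 256.9 reads in OC164 replicate 3.

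The 2 members with an r below 0 at Weslaco, picked out after their values were seen, also had a higher r within cultivars than between them. MELO3C015128.2 had r = -0.13 over the 24 libraries, with 0.483 over deviations from cultivar means and -0.30 over cultivar means. Its reads were highest in OC164, at 17004.8 ± 12270.9 (SD, n = 3), and TH-6, at 12801.2 ± 3198.7, and lowest in TH-5, at 1531.6 ± 868.9, which overlapped with Infinite Gold at 1856.3 ± 1878.4. MELO3C006545.2 had r = -0.054 over the 24 libraries, 0.656 over deviations and -0.28 over cultivar means, and was lowest in PRIMO, at 439.6 ± 80.39 reads (n = 3), which overlapped with TH-6 at 507.7 ± 140.4. In HD252, where most members were lowest, these genes had 6683.6 ± 2094.0 and 954.2 ± 170.1 reads (n = 3), above their lowest cultivars without overlap.

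With the CmACO1 value added to the cultivar fit, an alternative added after seeing the values, fewer members set CRUSER and HD252 apart. The CmACO1 slope of this fit is the one within cultivars, whose count of calls rested on OC164 replicate 3. It is carried over to CRUSER and HD252, the cultivars of highest and lowest mean CmACO1 value (17.5 and 5.726). CRUSER then had 1 member higher and 4 lower, near the shares of all genes, 2.2% and 2.63%. Without the covariate these shares had been 13.2% and 14.4%. HD252 had 11, each of them higher, against 2.04% higher and 1.44% lower of all genes, which had been 15.2% and 12.9%. Calls in these cultivars thus fell over all genes too. The members were chosen for following CmACO1, so their smaller differences in this fit are not a separate result. MELO3C021164.2 and MELO3C003803.2 were then at -0.47 and -0.48 in HD252 (limma adjusted p = 0.826 and 0.868). MELO3C013798.2 in CRUSER was at 0.61 (adjusted p = 0.0975). In PRIMO 24 members were still higher and 7 lower, against 10.2% and 8.97%, and in the F-test 67 passed, against 41.2%. MELO3C021164.2 was not among these (limma adjusted p = 0.358). HD150 had 10 higher and 5 lower, against 5.47% and 4.58%, where it had had none higher without the covariate. In OC164 17 were higher and 5 lower, against 9.67% and 8.04%. Infinite Gold had 17 and TH-6 had 11, each of them lower, where 3.28% and 1.49% of all genes were lower. The cultivars thus differed in both directions in this fit too.

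The r between members at Weslaco was mostly positive. Genes that each correlate closely with CmACO1 tend to correlate with one another, so this is not a separate result. No such value was made for all genes. Over the 4950 pairs of members the median r was 0.569 over the 24 libraries, with 95.2% above 0, and 0.548 over deviations from cultivar means. Members that were steep in F39 and TTDV were steep at Weslaco as well: across the 100 genes, which are not independent replicates, the slopes on CmACO1 in the 2 tables had r = 0.772. The median slope at Weslaco was 0.157. The members took 0.716% to 7.59% of a Weslaco library's reads, with a median of 1.89%. With the members sorted by ID number, 2 pairs next to each other in that order were 1 apart and 11 were at most 10 apart. No such count was made for all genes.

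The rule kept 5 other genes off the list whatever their r. MELO3C024771.2 and MELO3C024766.2 had r with CmACO1 of 0.606 and 0.538 in F39 and TTDV and 0.749 and 0.676 at Weslaco. MELO3C016540.2, MELO3C005449.2 and MELO3C025102.2 had 0.043, -0.028 and -0.184 in F39 and TTDV, and -0.358, -0.814 and 0.007 at Weslaco.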

How the data were processed

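Both tables hold log2-like values that the authors had variance-stabilised before they deposited them, for 29980 gene IDs. Per the submitters' processing notes, the authors' tools included DESeq and DESeq2. Which aligner, counting tool and genome build were used is not given in the sources used here. Their lowest value, 4.182278, stands for a count of 0. Inverting the stabilising formula returned whole reads (within 0.05) in every library, and reads in the text are these divided by each library's scaling.

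Members are the 100 genes of highest Pearson r with MELO3C014437.2 among those with a mean of 8 or more in the F39 and TTDV table, leaving out MELO3C014437.2 and 5 other genes the rule names. The members, lists and tests were chosen with earlier results of these data known. At Weslaco, genes with at least 3 libraries 1 unit above the lowest value (about 9.08 reads) were tested, all 100 members among them, with limma 3.58.1 in R 4.3.3 (trend and robust settings) and Benjamini-Hochberg adjustment over 17130 genes. The slope test had a random block for cultivar (correlation 0.386), and the slope tests were checked on simulated data. CmACO1 was left out of the tests.

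Named genes were, in the F39 and TTDV table, the 5 members of highest r, the 2 of highest mean reads and ranks 99 to 102. At Weslaco they were the 2 steepest members past the threshold in each slope test, the 2 of widest range in the F-test, and for each cultivar up to 2 per direction whose libraries did not overlap with the others. Alternatives were other filters, quantile normalization, plain moderation, voom on the recovered reads, no block, other list sizes and rules, and leaving out each library or cultivar. Chosen after the data were seen were CmACO1 as a covariate and leaving out a pair of libraries. No table paired the IDs with product names (0 matched the reference table), so the planned product lists were not used and no sequence or coordinate is given. Replicate numbers only name libraries.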

Additional observations from a re-analysis of the deposited data

How the results depend on the processing

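No named gene changed direction under the alternatives run, but the balance of higher and lower members did in 4 cultivars. No paired analysis was possible because the columns carry no replicate numbers shared between groups. Leaving out each library gave 76 to 83 members in the slope test, 11 to 68 within cultivars, 65 to 83 in the F-test, and for single cultivars 21 to 66 in CRUSER, 3 to 20 in HD150, 40 to 66 in HD252, 0 to 4 in Infinite Gold, 3 to 13 in OC164, 27 to 63 in PRIMO, 3 to 16 in TH-5 and 0 to 4 in TH-6. The median r at Weslaco stayed between 0.713 and 0.758. Without OC164, 8 members passed within cultivars. Voom gave 3 in OC164, 7 in TH-5 and 0 in TH-6, no filter 3 in OC164, and quantile normalization 2 in TH-6. With CmACO1 as a covariate the balance turned over in HD252 (11 passed), HD150 (15) and CRUSER (5, near the share of all genes). In the same fit 17 passed in Infinite Gold, 22 in OC164, 31 in PRIMO and 11 in TH-6, all counted in both directions. In OC164 it turned over at 13 without its replicate 3, at 7 without TH-6 replicate 1 or HD150 replicate 2, and at 5 without PRIMO replicate 2, CRUSER replicate 2 or Infinite Gold replicate 1. The cause of these changes was not tested. The list itself depended on the rule. Of the 100 genes, 51 were chosen again from the 13 group means, 46 from deviations from them, 44 from F39 alone and 42 from TTDV alone, 79 with Spearman's rho, and 86 to 99 with 1 library left out. Of 420 recomputed values for single named genes 7 fell short of the threshold, and 413 stayed on their side of it. Genes with few reads are compressed on the deposited scale, which limits small differences at low depth.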

Other observations

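The 100 genes at the other end of the same ranking ran against CmACO1 in both tables. Their r in F39 and TTDV was -0.863 to -0.573, by choice, and at Weslaco their median r was -0.696 with 98 of 100 below 0. Over the 7644 genes with a mean value of 8 or more at Weslaco the median r was 0.0309, with 52.1% above 0. MELO3C014774.2, the lowest of the ranked genes, had r = -0.863 in F39 and TTDV and -0.879 at Weslaco, where it ranged from 60.52 to 1639 reads. MELO3C003773.2 had -0.799 and -0.857, MELO3C022020.2 had -0.798 and -0.609, and MELO3C009484.2 had -0.750 and -0.752.

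Some genes that followed CmACO1 most closely at Weslaco were not among the 100. MELO3C021629.2 was the third in rank at Weslaco with r = 0.947, and rank 393 with r = 0.493 in F39 and TTDV. MELO3C023067.2 and MELO3C003327.2 both had 0.93 at Weslaco and 0.609 and 0.468 in F39 and TTDV.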
